A study of Mus musculus with 6 samples.

Results

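The genes described here are 43 members of the cell cycle and DNA replication programme: 4 regulators of the passage from G1 into S phase, 15 genes of DNA replication and 24 genes of G2 and mitosis. They were chosen by symbol, and each symbol was matched through its Ensembl identifier and GENCODE M21 to 1 of the 54532 genes in the deposited table. RNA came from whole kidneys of male C57BL/6 mice, with 6 libraries in all and 3 per group. Each library is a pool of 3 mice. Control mice carried KsprtTA, a transgene that expresses the doxycycline-dependent activator rtTA in the tubular epithelium of the kidney, proximal tubule and collecting duct included, and no TRE-adiponectin. The labels give their genotype as WT. KSPAPN mice carried KsprtTA and TRE-Adiponectin, so that doxycycline induces adiponectin in the same epithelia. Both groups received chow with 600 mg/kg doxycycline over 4 days, and age was not stated for them. The tissue is labelled kidney, although the extraction note names liver, and proximal tubule markers summed to between 13842 and 16444 CPM, the counts scaled to a common library total, in every library. The libraries held 17183358 to 20871173 counts on genes. *Adipoq*, the overexpressed gene, had 0 to 2 counts in the Control libraries and 17483 to 26811 in the KSPAPN libraries.

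Entry into the cell cycle starts with D-type cyclins, which activate CDK4 and CDK6 and thereby release E2F factors from the retinoblastoma protein. E2F factors then switch on cyclin E and the genes of DNA replication, among them the MCM helicase, its loaders CDC6 and CDT1, the sliding clamp PCNA and the enzymes that make deoxynucleotides. A later wave of transcription, driven by B-MYB and FOXM1 and held down in resting cells by the DREAM complex, supplies the cyclins, kinases, kinesins and centromere proteins of mitosis. In the adult kidney most tubular cells are at rest, so that a whole-organ extract averages a few cycling cells with many that are not. Fewer cycling cells and less of these transcripts per cycling cell cannot be told apart in such an extract.

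No member passed the test between the groups. In the edgeR quasi-likelihood fit with Benjamini-Hochberg adjustment over 16017 genes, all 43 members were tested and 0 of them passed an adjusted p of 0.05 in either direction, against 0.393% of all genes tested that were called higher in KSPAPN and 2.25% called lower. At an unadjusted p under 0.05, 1 member was higher (*Ccne2*) and 3 were lower (*Ccnd1*, *Mcm6* and *Mcm7*), whereas 7.52% of all genes were higher and 11.2% lower at that level. DESeq2 called 1 member, *Ccnd1*, lower, where it called 5.51% of the genes with an adjusted p lower. It gave no adjusted p for 4 of the 43 members. The limma fit on log2(FPKM + 1) called 0 members against 0.799% of all genes in either direction, with 5 of 43 members at an unadjusted p under 0.05 against 17.8% of all genes. The groups did not overlap in CPM scaled by TMM factors, which align the bulk of genes between libraries, for 2 members that were higher in KSPAPN (*Ccne2* and *Gins2*; 11.4% of all genes) and for 2 that were lower (*Cdt1* and *Mcm7*; 13.1% of all genes). By each of these counts the share among the members was no higher than in the whole table.

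Differences between the 3 groups of members were not tested, and their medians are a description. The median log2 fold change, KSPAPN over Control, was 0.38 for the 4 G1/S regulators, 0.003 for the 15 replication genes and 0.18 for the 24 mitosis genes, beside 0.01 for all genes tested. Of the members, 28 had a log2 fold change above 0: 3 of 4, 8 of 15 and 17 of 24, or 75.0%, 53.3% and 70.8%, beside 51.9% of all genes. The direction of the mitosis median rested on 1 library. Without KSPAPN replicate 3 it was -0.16, as was the replication median, and without both replicate 3 libraries it was 0.07. The range of log2 fold changes was similar for replication and mitosis genes, from -0.68 to 0.74 and from -0.62 to 0.60. Their precision was unequal, with median standard errors of 0.20 and 0.33.

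**Figure D1:**
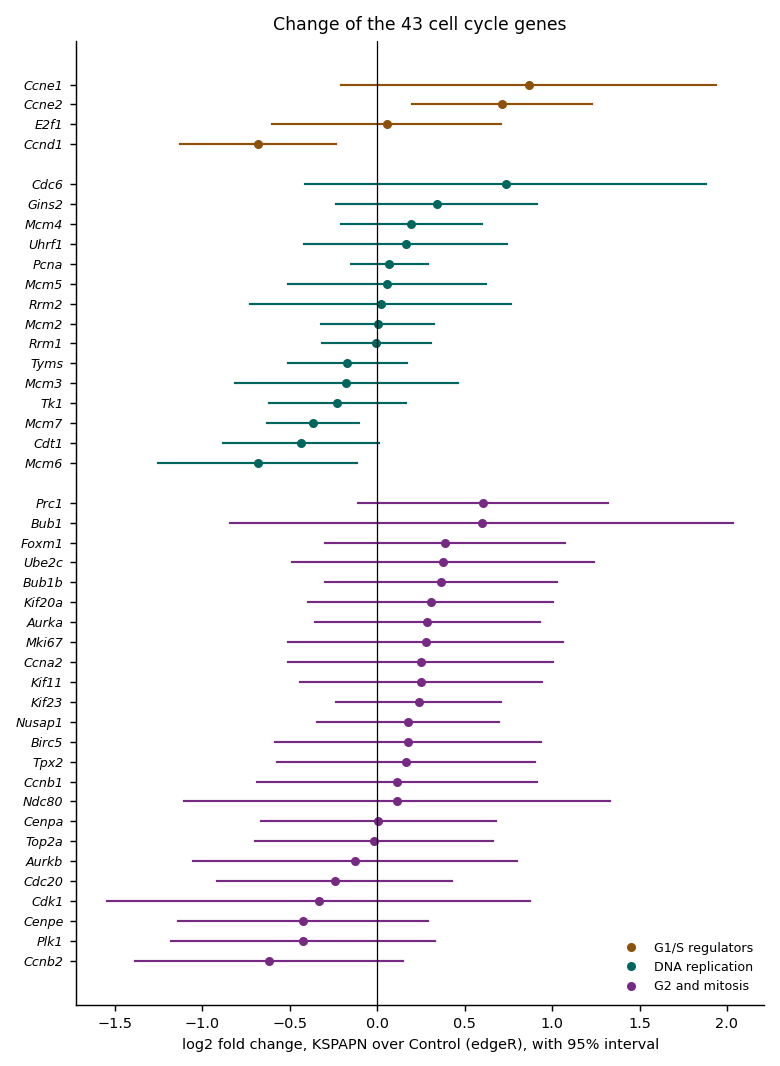
Log2 fold change of each of the 43 members, KSPAPN over Control, from edgeR; points are estimates, bars 95% intervals, and colours the 3 groups of members. The intervals of Ccnd1, Ccne2, Mcm6 and Mcm7 leave out 0, and those of all 24 mitosis genes include it.

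Since a missed threshold does not show that the groups were alike, the 95% intervals of the members are of use. They lay wholly between -1 and 1 on the log2 scale, so that they leave out a 2-fold change either way, for 13 of the 15 replication genes and for 10 of the 24 mitosis genes. Among the G1/S regulators this held for 1 of 4, and among all genes tested for 12001 of 16017. *Pcna*, the sliding clamp of the replication fork, was the most tightly measured member, with a log2 fold change of 0.07 ± 0.10 (SE) and an interval from -0.15 to 0.29. *Bub1*, a kinase of the spindle checkpoint with 7 to 46 counts per library, was the least, with an interval from -0.84 to 2.04.

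Expressed per transcript length, the members were low in this tissue. The deposited FPKM, which scale reads by gene length and library size, were averaged over the 6 libraries. The mean was highest for *Ccnd1* (20.5), *Pcna* (15.9) and *Mcm7* (5.41), and the median was 2.13 for the replication genes and 0.72 for the mitosis genes, against 3.99 for all genes tested. *Ndc80*, a kinetochore protein that binds microtubules, was the lowest member at 0.11 FPKM, with 5 to 27 counts. Counts of single mitosis genes ran from 5 to 373 per library, so that counting error by itself is large for the lower ones.

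Promoter sequences show how the groups of members differ in the letters known from cell cycle promoters. RefSeq promoters on GRCm38.p6, each from 250 bases before to 50 after the transcription start, were matched for 34 members (37 promoters). *Ccnd1*, *Ccne2*, *Mcm4*, *Gins2*, *Ccna2*, *Foxm1*, *Aurkb*, *Kif20a* and *Tpx2* had none. The motifs searched on both strands were the CCAAT box (CCAAT), which NF-Y binds, the cell cycle genes homology region or CHR (TTTGAA or TTCGAA), the element that the DREAM complex contacts, and an E2F site (TTTGGCGC or TTTCGCGC). Matches of different motifs overlapped once in the member promoters.

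Shares are of promoters, not of genes. The 20 mitosis promoters belong to 19 genes and the 15 replication promoters to 13, because *Prc1*, *Mcm7* and *Uhrf1* had 2 each. The 2 windows of *Prc1* overlap and hold the same CCAAT box and CHR. A CHR was found in 16 of 20 promoters of mitosis genes (80.0%), in 2 of 15 of replication genes (13.3%) and in 19.2% of all 32851 promoters. A CCAAT box was found in 17 of 20 mitosis promoters (85.0%), 11 of 15 replication promoters (73.3%) and 37.4% of all. The E2F site was found in 1 of 20 mitosis promoters (5%), 6 of 15 replication promoters (40.0%) and 0.813% of all. Mitosis promoters held both a CCAAT box and a CHR in 15 of 20 cases, against 7.52% of all promoters. Neither promoter of the G1/S regulators *Ccne1* and *E2f1* held any of the 3. The search took only the exact letters listed, so a site spelt otherwise was missed, and no match does not mean no E2F site. The pattern was shared by the 44 other mitosis genes with a promoter, described further on, of whose 50 promoters 35 held a CHR (70.0%). These are matches of letters in a window, not sites shown to be bound.

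The 3 promoters shown are printed 5′ to 3′ on the strand of the gene, from 250 bases before the start to 10 bases past it, with matches in capitals. *Mki67* and *Kif23* are the mitosis genes with the most counts that hold both a CCAAT box and a CHR. *Mki67* (chr7:135716370-135716629, minus strand) has 3 CCAAT boxes, 1 of them as ATTGG on the reverse strand, and 2 CHRs that begin 116 and 98 bases before the start. *Kif23* (chr9:61946790-61947049, minus strand) has 1 CCAAT box, read as ATTGG, and 1 CHR that begins at the third base of the transcript. *Mcm6* (chr1:128359696-128359955, minus strand), added after its values were seen as the replication gene with the lowest fold change, has 3 E2F sites, of which the first pair overlap, and 2 CCAAT boxes.
Mki67: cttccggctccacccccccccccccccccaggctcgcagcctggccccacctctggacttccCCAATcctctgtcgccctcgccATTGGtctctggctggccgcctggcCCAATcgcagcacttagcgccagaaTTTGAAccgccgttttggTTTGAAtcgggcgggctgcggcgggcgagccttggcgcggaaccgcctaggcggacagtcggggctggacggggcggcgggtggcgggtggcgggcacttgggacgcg
Kif23: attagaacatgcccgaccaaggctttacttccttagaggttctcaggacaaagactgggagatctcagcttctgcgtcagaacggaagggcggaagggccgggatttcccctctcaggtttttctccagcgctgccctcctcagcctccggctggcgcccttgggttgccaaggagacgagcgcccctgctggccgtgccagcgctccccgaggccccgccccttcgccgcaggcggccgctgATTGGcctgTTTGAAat
Mcm6: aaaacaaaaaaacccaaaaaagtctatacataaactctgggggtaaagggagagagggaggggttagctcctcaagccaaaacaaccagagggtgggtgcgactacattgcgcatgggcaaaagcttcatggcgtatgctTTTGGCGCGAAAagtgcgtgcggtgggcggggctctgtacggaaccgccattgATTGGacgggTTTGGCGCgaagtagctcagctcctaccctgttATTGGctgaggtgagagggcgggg

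Among the G1/S regulators, cyclin D1 and cyclin E2 had fold changes of opposite sign. *Ccnd1*, the cyclin D gene that links growth signals to CDK4 and CDK6, was at 140, 85.2 and 142 CPM in Control and at 60.9, 73.2 and 94.6 CPM in KSPAPN. Control replicate 2 lay among the KSPAPN libraries, so that the groups overlapped. The log2 fold change was -0.68 ± 0.20 (SE), with an interval from -1.13 to -0.24 and an adjusted p of 0.106 by edgeR. The same comparison had an adjusted p of 0.0132 by DESeq2. By edgeR with no filter on low counts it was 8.92e-08, with a log2 fold change of -0.69, in a fit that called 1339 genes in all. By edgeR without Control replicate 2, the Control library that lay among the KSPAPN libraries, it was 0.0455, in a fit that called 123 genes. The adjusted p with another library left out reached 0.357, and the log2 fold change stayed between -0.88 and -0.52 in these fits.

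*Ccne2*, which activates CDK2 at the start of S phase, was at 2.76, 2.42 and 3.22 CPM in Control and at 4.12, 4.91 and 4.76 CPM in KSPAPN, from 41 to 55 and from 88 to 96 counts. The groups did not overlap. The log2 fold change was 0.71 ± 0.23 (SE), a fold of 1.64, with an adjusted p of 0.135 by edgeR. *Ccne1*, the other cyclin E gene, was at 0.55, 0.35 and 0.70 CPM in Control and at 0.63, 0.95 and 1.39 CPM in KSPAPN, with 6 to 28 counts. Its log2 fold change of 0.87 ± 0.48 (SE, adjusted p = 0.363) had an interval from -0.21 to 1.94. *E2f1*, the activating E2F factor, overlapped between the groups, with a log2 fold change of 0.05 ± 0.29 (SE).

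A ratio of 2 genes in the same library does not depend on how libraries are scaled. There were 19.8, 28.5 and 22.7 reads of *Ccne2* per 1000 reads of *Ccnd1* in Control, and 67.7, 67.1 and 50.4 in KSPAPN. The groups did not overlap, and averaged 23.6 ± 4.41 and 61.7 ± 9.83 reads (SD, n = 3 each). This ratio was formed after both values were seen, so it is a description and was not tested. Both genes have a neighbour on the opposite strand whose reads would mix with theirs if counting ignored strand. The neighbour of *Ccne2*, *Ints8*, had a log2 fold change of 0.13 ± 0.12 (SE), and that of *Ccnd1*, *LTO1*, one of 0.09 ± 0.14 (SE). *Ints8* averaged 22.3 CPM in Control and 24.4 CPM in KSPAPN, well above the level of *Ccne2*, whereas *LTO1* lay below *Ccnd1* in every library. A small relative rise in *Ints8* is therefore not small beside the level of *Ccne2*. How far reads of *Ints8* entered the counts of *Ccne2*, and so the ratio, was not tested. Because *Ccnd1* supplied most of the reads of the 4 regulators, their summed level was 147, 85.9 and 152 CPM in Control and 76.4, 81.8 and 108 CPM in KSPAPN, a ratio of the means of 0.69 (0.67 with TMM-scaled CPM), whereas their median log2 fold change was above 0.

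**Figure D2:**
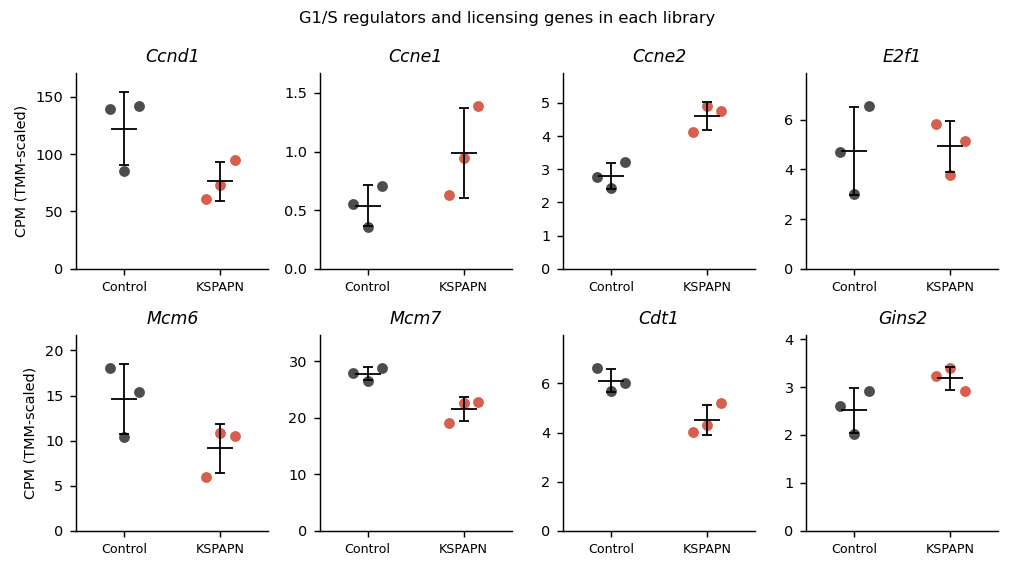
CPM scaled by TMM factors in each library for the 4 G1/S regulators, for Mcm6, Mcm7 and Cdt1 of the helicase and its loading, and for Gins2; points are libraries (n = 3 per group), and the black marks the mean and SD. The groups do not overlap for Ccne2, Mcm7, Cdt1 and Gins2, and they overlap for Ccnd1 and Mcm6, where Control replicate 2 is the lowest Control library.

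The DNA replication genes differed little in sum. Together they made up 191, 158 and 199 CPM in Control and 184, 159 and 193 CPM in KSPAPN, with means of 183 ± 21.6 and 179 ± 17.6 (SD, n = 3 each). The ratio of the means was 0.98, and 0.93 with TMM-scaled CPM. The 95% exact binomial (Clopper-Pearson) intervals of single libraries were narrow, as for Control replicate 2 with 153 to 164 CPM, and cover counting error only.

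Within this group, 3 genes of origin licensing, *Mcm6*, *Cdt1* and *Mcm7*, had the lowest fold changes. MCM2 to MCM7 form the ring of the replicative helicase, and CDC6 and CDT1 load it onto DNA. *Mcm6* was at 18.1, 10.4 and 15.4 CPM in Control and at 6.003, 10.9 and 10.5 CPM in KSPAPN. Its log2 fold change was -0.68 ± 0.26 (SE, adjusted p = 0.188, edgeR), with an adjusted p of 0.00650 in the fit with no filter, and Control replicate 2 fell among the KSPAPN libraries. *Mcm7* was at 27.9, 26.5 and 28.8 CPM in Control and at 19.0, 22.6 and 22.8 CPM in KSPAPN. The groups did not overlap, and the log2 fold change was -0.37 ± 0.12 (SE, adjusted p = 0.131, edgeR). *Cdt1* was at 6.64, 5.68 and 6.03 CPM in Control and at 4.03, 4.30 and 5.21 CPM in KSPAPN. Here too the groups did not overlap, with a log2 fold change of -0.44 ± 0.20 (SE, adjusted p = 0.276). *Cdc6*, the partner of CDT1, had a log2 fold change of 0.74 ± 0.52 (SE) from 7 to 32 counts, and its interval reached from -0.41 to 1.88.

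The 6 subunits of the helicase ring had log2 fold changes on both sides of 0, at 0.003 for *Mcm2*, -0.18 for *Mcm3*, 0.19 for *Mcm4*, 0.06 for *Mcm5*, and the values above for *Mcm6* and *Mcm7*. Their proportions could be compared without scaling between libraries. *Mcm7* made up 33.8%, 38.5% and 35.2% of the summed FPKM of the 6 in Control and 28.4%, 35.9% and 31.5% in KSPAPN, so the groups overlapped on this scale. *Mcm6* made up 20.8%, 14.3% and 17.8% in Control and 8.50%, 16.4% and 13.8% in KSPAPN. The lowest share of *Mcm6* was in KSPAPN replicate 1, where *Mcm4* had its highest share, at 22.7%. *Mcm7* overlaps *Cops6* on the opposite strand, whose log2 fold change was -0.20 ± 0.09 (SE, adjusted p = 0.254, edgeR). *Cops6* averaged 115 CPM in Control and 99.9 CPM in KSPAPN, above the level of *Mcm7*. How far its reads entered the counts of *Mcm7* was not tested. Of the 100-base stretches of *Mcm7* transcripts, 7.16% also occurred in another gene.

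The other replication genes overlapped between the groups, with the exception of *Gins2*, a subunit of the GINS complex that joins the helicase. *Gins2* was at 2.60, 2.01 and 2.93 CPM in Control and at 3.23, 3.40 and 2.93 CPM in KSPAPN, with 34 to 72 counts. The gap between its groups was therefore under 0.01 CPM, and the log2 fold change was 0.34 ± 0.26 (SE, adjusted p = 0.521). *Pcna* was at 35.1, 38.8 and 40.9 CPM in Control and at 41.1, 37.7 and 41.4 CPM in KSPAPN. Of its 100-base stretches 17.8% also occurred in a *Pcna* pseudogene. The genes of deoxynucleotide supply stayed close to 0, with log2 fold changes of -0.01 ± 0.14 for *Rrm1* and 0.02 ± 0.34 for *Rrm2*, the subunits of ribonucleotide reductase, -0.17 ± 0.15 for *Tyms*, thymidylate synthase, and -0.23 ± 0.18 for *Tk1*, thymidine kinase (SE each). *Rrm2* had a wide interval because it varied within both groups, from 7.21 to 11.7 CPM in Control and from 5.47 to 14.6 CPM in KSPAPN. *Uhrf1*, which maintains DNA methylation behind the fork, had 0.16 ± 0.26 (SE).

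The mitosis genes varied more between libraries of a group than between the groups. Their summed level was 80.0, 61.2 and 107 CPM in Control and 72.3, 83.3 and 126 CPM in KSPAPN, with means of 82.7 ± 23.0 and 94.0 ± 28.6 (SD, n = 3 each). The ratio of the means was 1.14 (1.09 with TMM-scaled CPM), while the highest library exceeded the lowest by 1.75-fold within Control and by 1.75-fold within KSPAPN. The exact 95% intervals for counting error of these libraries did not overlap, at 57.6 to 64.9 CPM for Control replicate 2 and 102 to 112 CPM for Control replicate 3, and at 68.7 to 76.0 CPM for KSPAPN replicate 1 and 122 to 132 CPM for KSPAPN replicate 3. For the replication genes the same folds were 1.26 and 1.21.

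**Figure D3:**
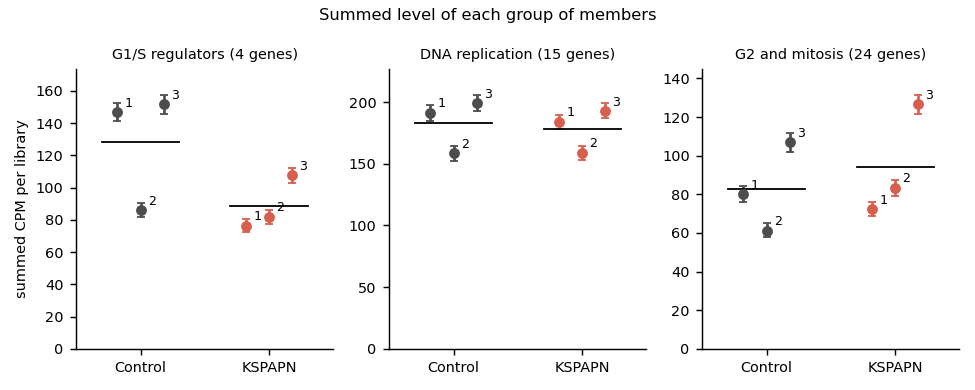
Summed CPM per library (counts of all members of a group, scaled to the total counts on genes) for the 3 groups of members; points are libraries numbered by replicate, bars exact 95% binomial intervals for counting error, and black lines the group means. For the mitosis genes replicate 3 is the highest library in both groups, at 107 and 126 CPM.

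*Mki67*, the antigen Ki-67 that marks cycling cells, was at 9.18, 6.504 and 15.1 CPM in Control and at 7.12, 11.7 and 18.5 CPM in KSPAPN. Its log2 fold change was 0.28 ± 0.36 (SE, adjusted p = 0.729, edgeR) and turned to -0.12 without KSPAPN replicate 3. *Top2a*, the topoisomerase that untangles chromosomes, was at 5.97, 5.62 and 10.2 CPM in Control and at 5.15, 6.08 and 10.3 CPM in KSPAPN, with a log2 fold change of -0.02 ± 0.31 (SE). In both genes replicate 3 stood highest in each group, and the ranges of the groups overlapped widely. *Cdk1*, the kinase that drives entry into mitosis, was at 1.99, 1.48 and 5.09 CPM in Control and at 1.52, 1.17 and 4.07 CPM in KSPAPN, and had the same profile.

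Replicate 3 was the highest of the 3 Control libraries for 20 of the 24 mitosis genes and the highest of the 3 KSPAPN libraries for 23 of 24, the exception being *Plk1*. It was the highest in both groups for 19 of 24 (79.2%), beside 11.5% of all genes tested. Among the replication genes this held for 6 of 15 (40.0%). Genes counted in the same library are not independent, so these counts describe the libraries and were not tested. Control replicate 2 was the lowest Control library for 20 of 24 mitosis genes and for 13 of 15 replication genes. The share over all genes was not counted. Among Control libraries it was also lowest in the summed markers of podocytes (205 CPM), endothelium (303 CPM) and fibroblasts and smooth muscle (119 CPM). The same held for the thick limb to collecting duct, tubular injury and adipocyte lists. Control replicate 3 was lowest for proximal tubule, leukocyte and erythroid markers. The number 3 is shared by the labels of both groups, and the labels do not say what a number stands for.

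**Figure D4:**
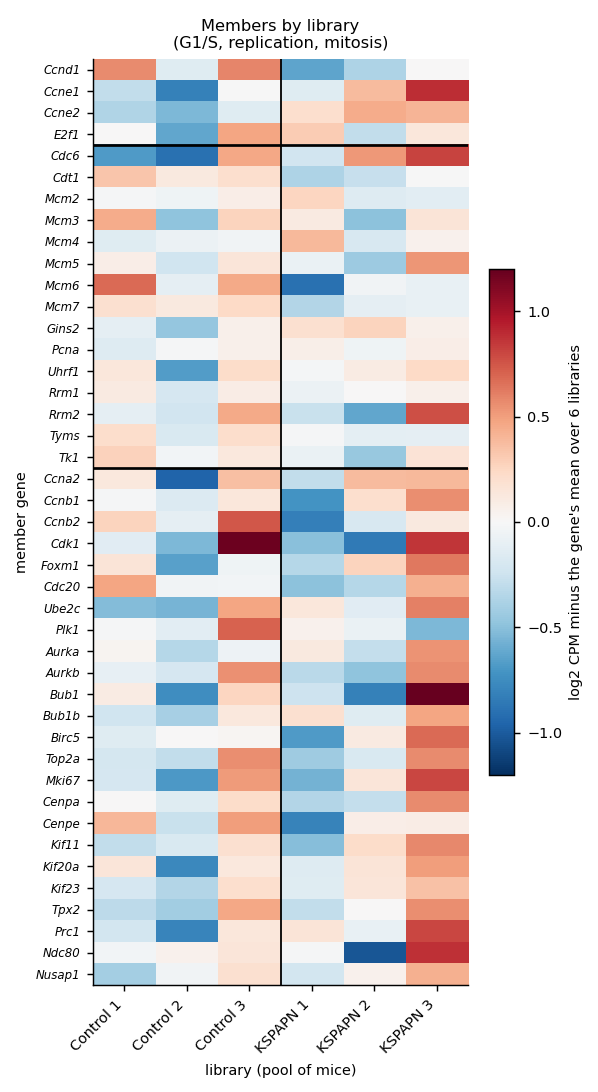
Log2 CPM of each member minus its own mean over the 6 libraries (colour, limited to 1.2 either way); rows are genes in the order G1/S regulators, DNA replication, G2 and mitosis, and columns are libraries. In the lowest block KSPAPN replicate 3 is above the gene's mean for 23 of 24 genes and Control replicate 3 for 21 of 24.

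Markers of other cell types moved with this pattern in part. Replicate 3 was the highest in both groups for 6 of 6 podocyte markers, whose summed level was 205 to 337 CPM in Control and 297 to 433 CPM in KSPAPN with none at 0 counts. It was the highest in both groups for 4 of 7 markers of fibroblasts and smooth muscle, summed to 119 to 222 and 146 to 281 CPM. The same held for 4 of 12 markers of the thick limb, distal tubule and collecting duct, summed to 5755 to 6676 CPM in Control and 5950.3 to 7802 CPM in KSPAPN, for 1 of 10 proximal tubule markers and for 1 of 7 tubular injury markers tested. For endothelium (7 tested), leukocytes (7 tested of 11), erythroid cells (5 tested) and adipocytes (4 tested of 7) it was the highest in both groups for 0 markers. Leukocyte markers summed to 129 to 130 CPM in Control and 108 to 157 CPM in KSPAPN, with *Ms4a1* and *S100a8* at 0 in some libraries. The part of these cell types in the level of the mitosis genes was not tested.

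Taken by role, the fold changes of the 24 mitosis genes lay on both sides of 0. Of the mitotic cyclins, *Ccna2* and *Ccnb1* had log2 fold changes of 0.25 ± 0.34 and 0.11 ± 0.36, and *Ccnb2* had -0.62 ± 0.35 (SE each). *Ccnb2*, the lowest of the 24, was at 2.88, 2.19 and 4.04 CPM in Control and at 1.30, 2.06 and 2.58 CPM in KSPAPN, and the groups overlapped (adjusted p = 0.369, edgeR). In *Ccnb1* 28.6% of the 100-base stretches were shared with pseudogenes. *Foxm1*, the factor that switches on many of these genes, had 0.39 ± 0.31 (SE).

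The mitotic kinases lay on both sides of 0, at 0.29 ± 0.29 for *Aurka*, which matures the spindle poles, -0.13 ± 0.42 for *Aurkb*, the kinase of the chromosomal passenger complex, and -0.43 ± 0.34 for *Plk1*. *Birc5*, survivin, a partner of AURKB, had 0.18 ± 0.34 (SE each). The checkpoint kinases *Bub1* and *Bub1b* had 0.60 ± 0.65 and 0.37 ± 0.30. *Cdc20* and *Ube2c*, which serve the anaphase-promoting complex as activator and ubiquitin-conjugating enzyme, had -0.24 ± 0.30 and 0.38 ± 0.39. None of these passed the test, and their adjusted p-values were all above 0.5 in the edgeR fit.

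The highest of the mitosis genes was *Prc1*, which bundles microtubules of the central spindle. It was at 3.04, 2.01 and 3.92 CPM in Control and at 3.99, 3.35 and 6.30 CPM in KSPAPN, with a log2 fold change of 0.60 ± 0.32 (SE, adjusted p = 0.348, edgeR). The kinesins had 0.25 ± 0.31 for *Kif11*, which pushes the poles apart, 0.31 ± 0.32 for *Kif20a* and 0.24 ± 0.21 for *Kif23*, both of cytokinesis (SE each), whereas the kinetochore motor *Cenpe* had -0.42 ± 0.32. The centromeric histone *Cenpa* had 0.005 ± 0.30, *Ndc80* 0.11 ± 0.55, and the spindle assembly factors *Tpx2* and *Nusap1* 0.17 ± 0.33 and 0.18 ± 0.23 (SE each).

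A further 5 lists of cell cycle genes give the surroundings of the members. By edgeR, DESeq2 and limma, 0 genes of any of them passed an adjusted p of 0.05. DESeq2 gave no adjusted p for 15 of the 49 other mitosis genes tested and 3 of the 39 other replication genes. The same held for 1 gene each among the other G1 genes and the p53 targets, and these genes could not pass there. Of all genes tested, 7.52% were higher and 11.2% lower at an unadjusted p under 0.05 by edgeR. Of 15 other G1 cyclins, CDKs and E2F factors tested, the median log2 fold change was -0.09 and 0 had an unadjusted p under 0.05 by edgeR, DESeq2 or limma. Of 9 CDK inhibitors and pocket proteins tested, 1 was higher at that level, *Rb1*, the retinoblastoma gene, at 32.5, 36.0 and 38.6 CPM in Control and 43.7, 44.6 and 48.5 CPM in KSPAPN. The groups of *Rb1* did not overlap (11.4% of all genes were higher without overlap), and its log2 fold change was 0.35 ± 0.10 (SE, adjusted p = 0.0973, edgeR). *Cdkn1a*, which encodes the CDK inhibitor p21 and is named after its values were seen, had -0.17 ± 0.21 (SE).

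Of 12 target genes of p53, 3 were higher at an unadjusted p under 0.05 and 0 lower by edgeR, beside 7.52% and 11.2% of all genes tested. The list median was 0.11, with 7 log2 fold changes above 0 and 5 below. *Sesn1*, a sestrin induced by stress, was at 19.9, 19.9 and 19.9 CPM in Control and at 24.7, 24.3 and 24.1 CPM in KSPAPN, with a log2 fold change of 0.29 ± 0.11 (SE, adjusted p = 0.183). *Btg2*, an antiproliferative gene, was at 18.9, 18.3 and 18.04 CPM in Control and at 23.5, 22.7 and 23.0 CPM in KSPAPN, with 0.32 ± 0.11 (SE, adjusted p = 0.157). Both genes separated the groups without overlap, as did 11.4% of all genes tested in the same direction, and varied little within them. They were named for their small unadjusted p in this list, and neither passed the test.

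Of 39 other replication genes, 2 were higher at an unadjusted p under 0.05 and 0 lower by edgeR, with a list median of 0.06. They were *Orc4* and *Orc3*, subunits of the origin recognition complex, at 0.31 ± 0.13 and 0.22 ± 0.09 (SE, adjusted p = 0.247 and 0.249). The summed level of the list was 534, 542 and 533 CPM in Control and 564, 598 and 575 CPM in KSPAPN, a ratio of the means of 1.08 that came to 1.03 with TMM-scaled CPM.

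Of 49 other mitosis genes tested out of 51, 1 was higher at an unadjusted p under 0.05 and 2 were lower, with a list median of 0.16. *Smc2*, a condensin subunit, had 0.61 ± 0.24, *Nek2*, a centrosomal kinase, -0.69 ± 0.25, and *Cks2*, a small subunit of CDK complexes, -0.39 ± 0.15 (SE each), with adjusted p-values of 0.202, 0.173 and 0.196. Replicate 3 again had the highest summed level in both groups of these genes, which were not among the members. It was the highest in both groups for 27 of 49 single genes (55.1%), and the summed level was 259, 233 and 295 CPM in Control and 255, 255 and 319 CPM in KSPAPN. For the 39 other replication genes the count was 4 (10.3%). These lists were counted in the same libraries as the members, so they are not independent observations.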

How the data were processed

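RNA of whole kidneys was sequenced by the authors in 6 libraries, 3 Control and 3 KSPAPN, after oligo(dT) enrichment. The authors deposited whole-number read counts per gene without normalization, and FPKM scaled by gene length and library size. The submitters' processing notes name STAR 2.5, TopHat, HTSeq 0.6.1, DESeq2 and edgeR without giving their roles; no source used here states the build, gene annotation or strand setting. Ensembl identifiers were matched to GENCODE M21 (54495 of 54532).

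Counts were tested with edgeR 4.0.16 (R 4.3.3; quasi-likelihood test, two-sided, TMM factors, filterByExpr with a minimum count of 10 and a minimum total of 15) over 16017 genes with Benjamini-Hochberg adjustment. Standard errors came from the fitted weights and moderated dispersion. CPM of single genes are TMM-scaled, and summed CPM of lists use total counts. The alternatives were DESeq2 1.42.0, RLE size factors, total counts, no filter, limma 3.58.1 on log2(FPKM + 1) and log2(FPKM + 0.1), a replicate block, removal of a GC and length trend, and each library left out; leaving out both replicate 3 libraries, and following *Ccne2*, *Mcm6* and *Mcm7*, were added after seeing the data. The code was tested on simulated data. Values of all 43 members are given; of the other lists, genes past an adjusted p of 0.05 were to be named, or else the 2 in each direction with the smallest unadjusted p under 0.05. The members and lists were chosen with earlier results of these data known. The paper's count of pooled mouse samples gives each pool of a group its own mice. Nothing says how same-numbered pools of the groups relate. The p-values measure the spread between these pooled libraries, not between single mice. The exact binomial intervals of summed CPM cover counting error only, whereas the edgeR intervals of log2 fold changes include the spread between libraries. Reads carry no molecular identifiers. Motifs were searched with Python 3.11.15.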

Additional observations from a re-analysis of the deposited data

How the results depend on the processing

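No member was called higher under any of the 15 alternatives, and members called lower numbered 0 apart from the following. DESeq2 called 1 lower (*Ccnd1*), beside 5.51% of the genes with an adjusted p. With no filter on low counts 2 were called lower (*Ccnd1* and *Mcm6*), where 1339 genes were called in all. That fit was not limited to the 16017 genes of the main fit, and 29418 genes had a count in some library. With single libraries left out the number ranged from 0 to 1. The 1 was *Ccnd1* without Control replicate 2, where 123 genes were called in either direction. The cause of these differences was not tested. The replication median ranged from -0.16 (without KSPAPN replicate 3) to 0.065 (without KSPAPN replicate 2) with single libraries left out, and the mitosis median from -0.16 to 0.38, with the lower value without the same library. With single libraries left out the log2 fold change of *Mki67* ran from -0.12 (without KSPAPN replicate 3) to 0.67 (without Control replicate 3). That of *Top2a*, at -0.02, changed sign with total counts only (0.041) and ran from -0.37 (without KSPAPN replicate 3) to 0.31 (without Control replicate 3), with 0.20 and 0.08 without KSPAPN replicate 1 and 2. In all, 22 of 43 members kept their sign in every alternative.

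The labels number the replicates alike in both groups. Deviations from the group means of same-numbered libraries correlated at 0.05, 0.15 and 0.17, so that not every pair exceeded 0.1, and the numbers were not taken to pair the samples, although each library correlated best with its own number. With the replicate block 929 genes were called in place of 424, 0 of them members, and the replication and mitosis medians were -0.008 and 0.17. Scaling by total counts moved the median over all genes tested from 0.01 to 0.08 on the log2 scale. Members with few counts, such as *Ndc80* with 5 to 27 per library, carry the most counting error; how much of the width of the intervals comes from depth was not tested.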
